A study of Homo sapiens with 5 samples.

Results

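Shelterin and telomerase are the machinery that caps and extends the ends of chromosomes, and 10 of their genes were followed here through 5 RNA-seq libraries of WI-38 cells. Of the 10, 9 were taken by name and TERC by position from 43202 genes with an annotated transcript in the deposited tables. They are the 6 shelterin subunits TERF1, TERF2, TERF2IP, TINF2, POT1 and ACD, the telomerase components DKC1, TERT and TERC, and the telomere helicase RTEL1. WI-38 is an established line of human diploid fibroblasts from lung with a finite lifespan in culture. The libraries came from late-passage cells at population doubling level (PDL) 55, from cells at PDL 15 given siRNA against AUF1, from cells at PDL 15 given siRNA against HuR, from cells at PDL 15 given a control siRNA, and from cells at PDL 15 with no siRNA named in the labels. Each group had 1 library, so no difference has a replicate check, no p-value is given, and every comparison is between 2 libraries rather than 2 conditions.

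Human telomeres are repeats of a G-rich hexamer that end in a single-stranded overhang. Shelterin covers them. TERF1 and TERF2 bind the duplex repeat, POT1 binds the overhang, TINF2 and ACD link these proteins, and TERF2IP sits on TERF2. Telomerase adds repeats by copying a template within its RNA, TERC, with the reverse transcriptase TERT, and DKC1 (dyskerin) stabilises that RNA. Normal human fibroblasts such as WI-38 are known for having too little TERT to keep their telomeres, which shorten with each division until the cells stop dividing. AUF1 (gene HNRNPD) and HuR (gene ELAVL1) are RNA-binding proteins that act on AU-rich sequences in mRNAs.

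The sequence that telomerase copies is shown first because TERC is the member whose row in the tables had to be found by position and not by name. The tables hold it as transcript ENST00000363312, 438 nt long, at hg19 chr3:169482398-169482835, an annotated RNA that lies inside the exon of TERC on the same strand. In RefSeq on GRCh38 the TERC gene has 451 nt, and the row lacks the 13 nt at its 5′ end. The first 120 bases of the row, from GENCODE 29 on GRCh38 at chr3:169764928-169765047, minus strand, are printed here with the 11 bases of the repeat template, bases 33 to 43 of the row, in capitals.
TERC: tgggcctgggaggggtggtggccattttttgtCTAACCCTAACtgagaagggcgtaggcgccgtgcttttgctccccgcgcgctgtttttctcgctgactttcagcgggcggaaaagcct

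Levels are in FPKM (fragments per kilobase of transcript, relative to the size of the library), summed over the annotated transcripts of a gene, and ranges in brackets are the authors' 95% bounds, summed likewise. Those bounds describe the estimate within 1 library and say nothing of the spread between cultures. The number of reads is not stated, but the median coverage per unit of FPKM, which scales with depth, was between 1.14 and 1.29 in 4 libraries and 0.300 with control siRNA. The control siRNA library is therefore the least precise, and its bounds are the widest relative to its values for each of the 6 members compared below. The siRNA targets were read first. HNRNPD had 20.3 FPKM (16.7 to 24.0) with AUF1 siRNA, against 61.2 FPKM (48.0 to 74.4) with control siRNA. ELAVL1 had 9.72 FPKM (8.59 to 10.8) with HuR siRNA, against 11.8 FPKM (9.38 to 14.1) with control siRNA, and these bounds overlap. Of 7 fibroblast markers, no more than 1 was at 0 in any library, and they summed to between 1069 and 6278 FPKM per library. The zeros differed by library. COL1A1 was at 0 with HuR siRNA but 4959 FPKM with AUF1 siRNA. THY1 was at 0 at PDL 55 and PDL 15 but 153.9 FPKM with control siRNA. PDGFRB was at 0 with control siRNA but 35.5 FPKM with HuR siRNA. Another fibroblast marker, VIM, had a failed estimate and was left out. The 3 endothelial markers and the 3 blood markers measured in all libraries each summed to under 3 FPKM (0.441 to 2.02 and 0.454 to 2.99), and 5 epithelial markers to between 4.38 and 16.7 FPKM. The other blood marker, CD68, failed at PDL 55 and was higher, at 15.5 FPKM with AUF1 siRNA, 16.2 FPKM with HuR siRNA, 18.5 FPKM with control siRNA and 2.80 FPKM at PDL 15, and its part in the results was not tested.

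Where they gave an estimate, the 6 shelterin genes lay between 0.975 FPKM, for ACD with control siRNA, and 11.2 FPKM, for TERF2IP at PDL 55, and DKC1, TERT and TERC spanned a wider range. DKC1 was the highest member in 4 of 5 libraries and the second highest, after TERF2IP, at PDL 55. TERT and TERC were under 1 FPKM in all 5 libraries, RTEL1 was under 1 FPKM in 4 of 5, and ACD was under 1 FPKM in 1. In each library 3 members were thus under 1 FPKM, of 10 members measured in 4 libraries and of 9 with control siRNA, where TERF1 gave no estimate. The count takes the zeros of RTEL1 as listed, and an exact 0 may not be its level. With the read-through transcript of RTEL1 added it was 2 with AUF1 siRNA and with HuR siRNA. Without transcripts marked as low data in any library, it was 5 with control siRNA and 4 in the other libraries except AUF1 siRNA, where it was 3. That setting drops such a transcript from all libraries, also where its own estimate is not marked, as for DKC1 at PDL 55 and with control siRNA.

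The genes of the proteins that bind telomeric DNA differed in how steady their summed values were. The annotated transcripts summed numbered 1 for TERF2, 9 for TERF1 and 14 for POT1. Sums over such unlike numbers of transcripts do not show that the mRNAs differed in steadiness. TERF2 (ENSG00000132604, hg19 chr16:69389464-69419859), which folds the chromosome end into a protected loop, had 5.75 FPKM (5.26 to 6.23) at PDL 55, 6.57 FPKM (6.04 to 7.11) with AUF1 siRNA, 4.25 FPKM (3.74 to 4.77) with HuR siRNA, 5.19 FPKM (4.21 to 6.18) with control siRNA and 6.06 FPKM (5.55 to 6.57) at PDL 15. It was the steadiest member measured in all 5 libraries: its highest value was 1.55 times its lowest, and all of it came from a single transcript of 2951 nt. Assembled transcripts changed its value only with HuR siRNA, to 6.40 FPKM, so that HuR siRNA was no longer the lowest. TERF1 (ENSG00000147601, hg19 chr8:73921099-73960357), the other duplex-repeat binder, had 5.93 FPKM (4.80 to 7.06) at PDL 55, 3.28 FPKM (2.62 to 3.94) with AUF1 siRNA, 7.01 FPKM (4.87 to 9.15) with HuR siRNA and 5.26 FPKM (4.18 to 6.33) at PDL 15. Its estimate failed with control siRNA, so neither AUF1 siRNA nor HuR siRNA can be set against control siRNA for this gene. With assembled transcripts counted, TERF1 was at 5.93 FPKM at PDL 55, 5.40 FPKM with AUF1 siRNA, 10.2 FPKM with HuR siRNA and 13.0 FPKM at PDL 15, so that PDL 15 became the highest. In the HuR siRNA library 3.45 FPKM of TERF1 came from a 518-nt transcript with no value in the other 3 libraries measured, and the main transcript of 1677 nt was at 3.27 FPKM at PDL 55, 3.28 FPKM with AUF1 siRNA, 3.56 FPKM with HuR siRNA and 4.40 FPKM at PDL 15.

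POT1 (ENSG00000128513, hg19 chr7:124462440-124570037), the overhang-binding subunit, varied most among the shelterin genes. It had 1.34 FPKM (1.10 to 1.58) at PDL 55, 4.98 FPKM (2.99 to 6.96) with AUF1 siRNA, 4.04 FPKM (2.75 to 5.33) with HuR siRNA, 4.17 FPKM (1.90 to 6.43) with control siRNA and 9.87 FPKM (7.60 to 12.1) at PDL 15. The PDL 15 library was thus 7.36 times the PDL 55 library, and the 3 siRNA libraries lay between them with bounds that overlap each other. The transcripts behind these sums differed: all of the PDL 55 value was the 4080-nt ENST00000357628, whereas 5.69 FPKM of the PDL 15 value came from the 579-nt ENST00000429326, which the authors' tables mark as having low data. Over annotated transcripts of at least 1000 nt alone, POT1 had 1.34 FPKM at PDL 55, 1.18 FPKM with AUF1 siRNA, 0.768 FPKM with HuR siRNA, 0.864 FPKM with control siRNA and 4.17 FPKM at PDL 15. On that measure PDL 15 still stood highest, and PDL 55 was no longer the lowest. An antisense gene, POT1-AS1, was at 4.42 FPKM at PDL 55, 2.64 FPKM with AUF1 siRNA, 2.76 FPKM with HuR siRNA, 1.11 FPKM with control siRNA and 5.85 FPKM at PDL 15. Strand was not stated for these libraries, so reads of POT1 and of its antisense partner cannot be told apart where they overlap.

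Among the subunits that connect shelterin, TERF2IP (ENSG00000166848, hg19 chr16:75681611-75691338), the TERF2 partner also called RAP1, stood apart at PDL 55. It had 11.2 FPKM (10.3 to 12.1) at PDL 55, 4.42 FPKM (3.88 to 4.96) with AUF1 siRNA, 5.75 FPKM (5.04 to 6.46) with HuR siRNA, 5.05 FPKM (3.80 to 6.30) with control siRNA and 5.19 FPKM (4.52 to 5.86) at PDL 15. The other 4 libraries, all at PDL 15, lay between 4.42 and 5.75 FPKM, and all of their bounds ended below those of PDL 55, with the whole value in 1 transcript of 2175 nt. The tables also hold transcripts that were assembled from the reads and lie in this gene, and with them TERF2IP summed to 21.0 FPKM at PDL 55, 8.53 FPKM with AUF1 siRNA, 13.5 FPKM with HuR siRNA, 8.38 FPKM with control siRNA and 17.1 FPKM at PDL 15. PDL 55 was still the highest, and the PDL 15 library came closer to it.

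TINF2 (ENSG00000092330, hg19 chr14:24708853-24711880), the hub that joins TERF1, TERF2 and ACD, had 3.54 FPKM (3.04 to 4.04) at PDL 55, 2.10 FPKM (1.67 to 2.53) with AUF1 siRNA, 3.12 FPKM (2.40 to 3.84) with HuR siRNA, 2.36 FPKM (1.01 to 3.71) with control siRNA and 3.39 FPKM (2.67 to 4.11) at PDL 15. The AUF1 siRNA value was the lowest, with bounds that end below those of PDL 55 and PDL 15 but lie within those of control siRNA. With assembled transcripts it was no longer the lowest: TINF2 was then at 4.42 FPKM at PDL 55, 3.70 FPKM with AUF1 siRNA, 3.12 FPKM with HuR siRNA, 2.36 FPKM with control siRNA and 4.47 FPKM at PDL 15. ACD (ENSG00000102977, hg19 chr16:67691433-67694713), the gene of TPP1, which pairs with POT1 and recruits telomerase, was the lowest shelterin gene in all libraries, with 1.20 FPKM (0.971 to 1.43) at PDL 55, 1.51 FPKM (1.24 to 1.79) with AUF1 siRNA, 2.26 FPKM (1.92 to 2.60) with HuR siRNA, 0.975 FPKM (0.488 to 1.46) with control siRNA and 1.48 FPKM (1.22 to 1.74) at PDL 15. HuR siRNA was the one library whose bounds for ACD lay above those of each of the other libraries. With assembled transcripts counted, ACD was at 3.68 FPKM at PDL 55, 7.14 FPKM with AUF1 siRNA, 6.12 FPKM with HuR siRNA, 0.975 FPKM with control siRNA and 5.90 FPKM at PDL 15, since the control siRNA library holds no assembled transcript there. On that measure ACD was the lowest shelterin gene only with control siRNA, where TERF1 gave no estimate.

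DKC1 (ENSG00000130826, hg19 chrX:153991031-154005964), which modifies RNA in many small nucleolar particles as well as holding telomerase RNA, had 9.16 FPKM (7.67 to 10.7) at PDL 55, 15.4 FPKM (13.3 to 17.5) with AUF1 siRNA, 34.4 FPKM (31.2 to 37.7) with HuR siRNA, 12.9 FPKM (8.57 to 17.2) with control siRNA and 18.8 FPKM (16.7 to 20.9) at PDL 15. The HuR siRNA value stood above the others with bounds that overlap none of them, and neighbours among the lower 4 overlap. A 670-nt transcript, ENST00000412124, was measured in all libraries, at 9.16 FPKM at PDL 55, 8.54 FPKM with AUF1 siRNA, 23.2 FPKM with HuR siRNA, 8.42 FPKM with control siRNA and 18.8 FPKM at PDL 15. The authors' tables mark it as having low data at PDL 15, where it was the whole annotated value of DKC1. The full-length transcript of 2577 nt had a value only with AUF1 siRNA, at 6.89 FPKM, and with HuR siRNA, at 11.3 FPKM. With assembled transcripts counted, DKC1 was at 26.8 FPKM at PDL 55, 15.4 FPKM with AUF1 siRNA, 34.4 FPKM with HuR siRNA, 17.5 FPKM with control siRNA and 31.9 FPKM at PDL 15, so that HuR siRNA was still the highest and PDL 15 came near it.

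The catalytic pair of telomerase was near the limit of what these libraries could measure. TERT (ENSG00000164362, hg19 chr5:1253262-1295184) had 0.00836 FPKM (0 to 0.0320) at PDL 55, was listed at 0 with AUF1 siRNA and with HuR siRNA, and had 0.314 FPKM (0.0298 to 0.597) with control siRNA and 0.0912 FPKM (0.00648 to 0.184) at PDL 15. Its highest value came from the shallowest library and rests on coverage of 0.0942 reads per base over a 2992-nt transcript. TERC had 0.316 FPKM (0.0333 to 0.598) at PDL 55, 0.216 FPKM (0 to 0.464) with AUF1 siRNA, 0.391 FPKM (0.0412 to 0.740) with HuR siRNA, 0.339 FPKM (0.0358 to 0.642) at PDL 15, and was listed at 0 with control siRNA. The 4 values above 0 have overlapping bounds and rest on coverage of 0.269 to 0.447 reads per base of the row that carries the template printed above. No difference in TERT or TERC was detectable at this depth. Their zeros are not marked as failed estimates, but an exact 0 may still not be the level.

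RTEL1 (ENSG00000258366, hg19 chr20:62289163-62330037), the helicase that unwinds telomere loops, had 2.32 FPKM (1.45 to 3.20) with control siRNA and was listed at 0 in the other 4 libraries. The annotation also holds a read-through gene, RTEL1-TNFRSF6B, whose transcript runs from RTEL1 into TNFRSF6B, and the tables put it at 2.77 FPKM with AUF1 siRNA, 3.01 FPKM with HuR siRNA and 0 in the other 3. Added together, a sum chosen after the values were seen, they gave 2.77 FPKM with AUF1 siRNA, 3.01 FPKM with HuR siRNA and 2.32 FPKM with control siRNA, with overlapping bounds, and were listed at 0 at PDL 55 and at PDL 15. The neighbouring gene ARFRP1 was at 3.24 FPKM at PDL 55 and 2.18 FPKM with control siRNA and was listed at 0 in the other 3 libraries. RTEL1 therefore gives no ratio in any comparison.

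**Figure D1:**
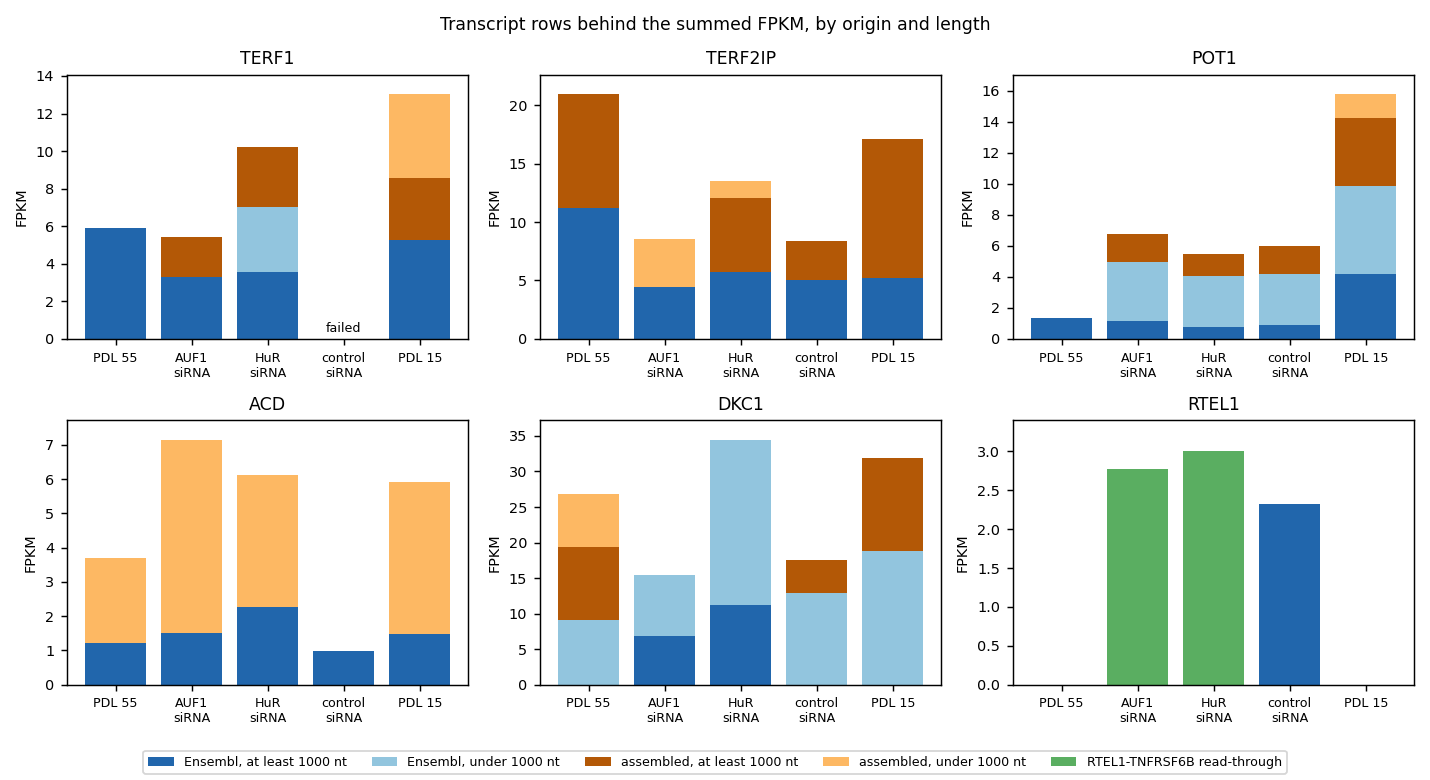
FPKM of TERF1, TERF2IP, POT1, ACD, DKC1 and RTEL1 per library, stacked by the kind of transcript behind it (annotated transcripts of at least 1000 nt, shorter annotated transcripts, transcripts assembled from the reads, and for RTEL1 the read-through transcript). Short annotated transcripts hold more than the longer ones for POT1 at PDL 15 (5.69 against 4.17 FPKM), and assembled transcripts raise DKC1 at PDL 55 to 26.8 FPKM.

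For the comparisons, a ratio is log2((FPKM + 1)/(FPKM + 1)) less the median of that ratio over 12597 genes kept, which have a mean of at least 1 FPKM, no failed transcript and no small-RNA type. The medians removed were -0.32 for PDL 55 against PDL 15, 0.19 and 0.31 for AUF1 siRNA and HuR siRNA against control siRNA, and -0.42 for control siRNA against PDL 15. A gene is called when it is at least 2-fold apart on this scale, which understates differences at low levels. The share of all genes kept that were called includes genes listed at 0 in either library. A member listed at 0 gets no ratio. Whether bounds overlap is read from the deposited FPKM, before the median is removed. The share of all genes kept with bounds apart was not computed, so counts of members by their bounds have no background to be read against. TERF2, TERF2IP, TINF2, POT1, ACD and DKC1 were kept. TERT, TERC and RTEL1 had too low a mean, and TERF1 failed in 1 library.

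The comparison of PDL 55 with PDL 15 sets the late-passage library against the untreated library at the earlier PDL, by their labels. TERF2IP was higher at PDL 55, with a log2 ratio of 1.30, and POT1 was lower, with a log2 ratio of -1.89. Thus 2 of the 6 members kept were called, 1 in each direction, where 19.8% of all genes kept were called (9.53% higher and 10.3% lower). With 6 members, these 2 calls are not read as a difference from that background. The other subunits were less than 2-fold apart: the log2 ratio was 0.37 for TINF2, 0.26 for TERF2, 0.15 for ACD and -0.64 for DKC1, and among these 4 DKC1 alone had bounds that do not overlap. Assembled transcripts ended that direction for DKC1, at 0.10 against PDL 15 and 0.50 against control siRNA, and turned ACD to -0.22 against PDL 15 and 1.16 against control siRNA. TERF1, outside the genes kept, had a ratio of 0.47 with overlapping bounds, and its direction turned with the transcripts counted, at -0.68 with assembled transcripts and -0.03 for the highest transcript alone. The median of the 6 members was 0.21, against 0 for all genes kept.

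These results depended on which transcripts were summed. POT1 was below 0 in all 11 ways of computing its ratio and at least 2-fold lower in 9, from -2.50 with assembled transcripts to -0.89 without the transcripts marked as low data. It was -1.19 with control siRNA in the place of PDL 15. The highest transcript alone was at 0 at PDL 55 and gave no ratio. TERF2IP was above 0 in all 12 ways of computing its ratio and at least 2-fold higher in 7, with 0.62 when assembled transcripts were counted and 0.96 against control siRNA. Of 14 proliferation markers, 12 were called lower at PDL 55 and none higher, and all 14 summed to 30.7 FPKM at PDL 55, against 183.1 FPKM at PDL 15, with none at 0 in either. Their part in the POT1 and TERF2IP values was not tested. In bulk RNA, fewer cells of a type and less RNA per cell cannot be told apart.

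The AUF1 siRNA library was set against the control siRNA library. With 1 library per group, neither a difference nor its absence can be put down to AUF1. None of the 6 members was called, where 21.3% of all genes kept were (10.1% higher and 11.2% lower). With 6 members, this is not read as a difference from that background. Ratios ran from -0.35 for TERF2IP to 0.16 for ACD with a median of 0.04, and all 6 had overlapping bounds. TERF2 was at 0.10, DKC1 at 0.05, POT1 at 0.02 and TINF2 at -0.30. The bounds of POT1 allow anything from -1.08 to 1.27, and those of TERF2 from -0.22 to 0.45, so the control siRNA library limits what could be seen. A call appeared when other transcripts were counted: ACD reached 1.79 with assembled transcripts, of which the control siRNA library holds none in this gene. DKC1 reached 1.05 when FPKM was multiplied by transcript length, and was -0.42 with assembled transcripts and -0.79 with those and PDL 15 in the place of control siRNA. TINF2 turned to 0.23 with assembled transcripts.

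HuR siRNA was set against the same control siRNA library. DKC1 was higher with HuR siRNA, with a log2 ratio of 1.04, and was the 1 member of 6 called, where 22.3% of all genes kept were called (10.7% higher and 11.6% lower). ACD, at 0.41, was the other member whose bounds did not overlap, but once the median was removed its bounds allow -0.06 to 0.97. With assembled transcripts ACD was called at 1.48 and DKC1, at 0.57, was not, so the count of 1 then stood for another gene. TERF2 was at -0.55, POT1 at -0.34, TERF2IP at -0.15 and TINF2 at -0.01, all with overlapping bounds, and the median of the 6 was -0.08. For TERF2 the bounds allow -0.91 to -0.16 once the median is removed, but its ratio was -0.11 with assembled transcripts and 0.15 with those and PDL 15 in the place of control siRNA. TERF2IP turned to 0.26 with assembled transcripts. The DKC1 ratio was above 0 in all 11 ways that gave a ratio and at least 2-fold in 6. Without low-data transcripts DKC1 was at 0 with control siRNA and gave no ratio. It was 0.92 with PDL 15 in the place of control siRNA, and 0.19 with that change and assembled transcripts. ELAVL1 itself had overlapping bounds between these libraries, so a fall of its mRNA is not shown by them. The AUF1 siRNA and HuR siRNA comparisons share the control siRNA library.

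The comparison of control siRNA with PDL 15 sets side by side 2 libraries with no targeted knockdown. They differ in the siRNA given and in depth, with a median coverage per unit of FPKM of 0.300 against 1.26. These differences cannot be told apart from the spread between like libraries. None of the 6 members was called, where 25.1% of all genes kept were (13.6% higher and 11.5% lower). With 6 members, this too is not read as a difference from the background. POT1, at -0.66, had bounds that do not overlap, although with the median removed they allow -1.76 to 0.21, and TERF2IP, at 0.38, was the highest. With assembled transcripts TERF2IP turned to -0.48 and ACD was at -1.34. The percentage of all genes called was larger here than in the other 3 comparisons, and no named siRNA target separates these libraries.

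The wider telomere pathway was read from lists of related genes, each set beside the 19.8% to 25.1% of all genes kept that were called. Of 14 genes whose products assemble telomerase RNA with DKC1 or mature it, 12 were kept, and none was called at PDL 55, with a median of -0.17. CST and primase, which fill in the complementary strand of the telomere, had 5 of 7 kept, and 2 were called lower at PDL 55 with a median of -0.71. PRIM2, a primase subunit, was at 11.7 FPKM at PDL 55, against 41.1 FPKM at PDL 15 (-1.41), and PRIM1, the catalytic one, was at 0.647 FPKM at PDL 55, against 3.36 FPKM at PDL 15 (-1.08). Of the helicases and nucleases 5 of 9 were kept, 2 were called lower, and the median was -0.84. That median is the value of SLX4, which was listed at 0 at PDL 55 and was at 1.25 FPKM at PDL 15. An exact 0 may not be its level. EXO1, an exonuclease that resects DNA ends, was at 0.283 FPKM at PDL 55, against 6.05 FPKM at PDL 15 (-2.13), and FEN1, a flap endonuclease of replication, was at 1.87 FPKM at PDL 55, against 8.96 FPKM at PDL 15 (-1.47). The proliferation markers given above were lower in the same comparison, and their part in these values was not tested.

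AUF1 and related hnRNPs, several of which bind telomeric repeats, had all 6 genes kept and 2 called lower at PDL 55, with a median of -0.90. HNRNPD was at 42.3 FPKM at PDL 55, against 119.1 FPKM at PDL 15 (-1.15), and HNRNPA1 was at 46.3 FPKM at PDL 55, against 160.0 FPKM at PDL 15 (-1.44). Of 13 modifiers and damage sensors kept of 15, 1 was called higher and 1 lower, with a median of -0.49. DAXX, a histone chaperone that works with ATRX at telomeres, was lower at 4.53 FPKM at PDL 55, against 14.6 FPKM at PDL 15 (-1.17). The 1 gene counted as higher was SMG5, an RNA decay factor, at 27.1 FPKM at PDL 55 and listed at 0 at PDL 15, which gives no fold.

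With AUF1 siRNA the assembly list had 1 of 12 called higher and 2 lower, and the CST and helicase lists had none called. RUVBL2, an ATPase of the assembly complex, was at 25.6 FPKM with AUF1 siRNA, against 10.2 FPKM with control siRNA (1.06). NOP10, which binds DKC1 in the telomerase particle, was at 11.2 FPKM with AUF1 siRNA, against 25.9 FPKM with control siRNA (-1.32), and the poly(A) polymerase gene TENT4B was at 0.911 FPKM with AUF1 siRNA, against 2.51 FPKM with control siRNA (-1.06). The modifiers and sensors had 1 of 13 called in each direction. XRCC5, a Ku subunit gene, was at 103.7 FPKM with AUF1 siRNA, against 38.5 FPKM with control siRNA (1.22), and the checkpoint kinase gene ATR was at 3.55 FPKM with AUF1 siRNA, against 7.24 FPKM with control siRNA (-1.04). HNRNPD, the siRNA target, was the 1 of 6 hnRNP genes called (-1.73). At PDL 15, RUVBL2 was at 15.8 FPKM, NOP10 at 17.2 FPKM, TENT4B at 2.88 FPKM and ATR at 5.03 FPKM. The ratios of these genes against PDL 15 were not computed. How far their calls rest on the control siRNA library was therefore not tested.

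With HuR siRNA the modifiers and sensors had 2 of 13 called higher and 1 lower, and 1 of 12 assembly genes was lower. XRCC5 was at 132.9 FPKM with HuR siRNA, against 38.5 FPKM with control siRNA (1.45), and RAD50, of the complex that senses broken ends, was at 32.9 FPKM with HuR siRNA, against 11.7 FPKM with control siRNA (1.11). DAXX was at 3.93 FPKM with HuR siRNA, against 8.83 FPKM with control siRNA (-1.30), and TENT4B was at 0.587 FPKM with HuR siRNA, against 2.51 FPKM with control siRNA (-1.45). The XRCC5 and RAD50 calls rest on the control siRNA library: that library was itself lower than PDL 15 for both, with XRCC5 at 38.5 FPKM with control siRNA, against 153.8 FPKM at PDL 15 (-1.55), and RAD50 at 11.7 FPKM with control siRNA, against 35.0 FPKM at PDL 15 (-1.09). In that comparison the modifiers and sensors had 1 of 13 called higher and 3 lower, and the CST and assembly lists had 1 lower each. NBN, the partner of RAD50, was also lower, at 3.41 FPKM with control siRNA, against 13.5 FPKM at PDL 15 (-1.30), as was POLA1, the catalytic subunit of the primase-associated polymerase, at 16.6 FPKM with control siRNA, against 51.6 FPKM at PDL 15 (-1.16). SMG5 was at 17.4 FPKM with control siRNA and listed at 0 at PDL 15. TOE1, a TERC-processing nuclease, was listed at 0 with control siRNA and was at 2.06 FPKM at PDL 15.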

How the data were processed

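Total RNA of WI-38 cells was sequenced in 5 libraries, 1 per group. Trizol-extracted RNA, polyadenylated or not, was amplified by single-primer isothermal amplification and read on an Illumina Genome Analyzer, per the labels' protocols. Per the submitters' processing notes, TopHat2 2.0.6, Cufflinks 2.0.2 and Cuffdiff were used on hg19. The authors deposited, per the file headers, an FPKM value per transcript with lower and upper bounds, a status and a coverage value. The deposited coverage is a signal in reads per base. The sources used here do not state the read number, the annotation release or the strand setting.

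FPKM and its bounds were summed over the annotated transcripts of each gene, named through the tables and GENCODE 29. Sums of bounds tend to be wider than bounds of a sum. A transcript without a shared identifier was placed by position where at least 50% of it lay in 1 gene and at most 10% in any other. Genes with a failed transcript (1394), small RNA genes (3863) and genes under a mean of 1 FPKM were left out of the comparisons. Ratios used a pseudocount of 1 FPKM and were centred on the median gene. With 1 library per group no test was possible, and the scripts were checked on simulated data. The members and the gene lists were chosen with earlier results of these data known. Genes named are all 10 members, HNRNPD and ELAVL1, and from the pathway lists up to 15 per comparison that were kept, called and had bounds that do not overlap, by size of the ratio. POT1-AS1, RTEL1-TNFRSF6B, ARFRP1, NHP2, GAR1 and CD68 were chosen after their values were seen. Alternatives were another pseudocount, other filters, no centring, FPKM times length, the highest transcript only, no low-data transcripts, assembled transcripts and the other PDL 15 library. Python 3.11.15, pandas 2.3.3, numpy 2.4.6 and matplotlib 3.10.9 were used. Promoter and protein sequences were not used here.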

Additional observations from a re-analysis of the deposited data

How the results depend on the processing

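No paired analysis was possible because each group has 1 library, and for the same reason no library could be left out of a group. No member ratio called at least 2-fold in the main setting changed sign under the alternatives run, while several that were not called did, as given beside them. The pathway genes named were not put through these alternatives. XRCC5, called higher with AUF1 siRNA and with HuR siRNA, was at 103.7 FPKM and 132.9 FPKM there, below the 153.8 FPKM of PDL 15. Of 6 members kept, the count at least 2-fold higher at PDL 55 (1) was 0 without centring, without the filter on mean FPKM, with assembled transcripts, with control siRNA as the reference, and by FPKM times length with assembled transcripts. It was 2 with control siRNA as the reference and assembled transcripts. The count lower at PDL 55 (1) was 0 with a mean of at least 5 FPKM, with the highest transcript only, without low-data transcripts and by FPKM times length. For AUF1 siRNA the count higher (0) was 1 with assembled transcripts, by FPKM times length, and with both. For HuR siRNA the count higher (1) was 0 with a mean of at least 5 FPKM, without low-data transcripts, and against PDL 15 with or without assembled transcripts, and against PDL 15 the count lower (0) was 1 either way, which without assembled transcripts was POT1 at -1.02. For control siRNA against PDL 15 the count lower (0) was 1 without centring, without the filter, with assembled transcripts and without low-data transcripts. Members under 1 FPKM with control siRNA (3) were 5 without low-data transcripts. The filter at a mean of 5 FPKM leaves 3 members and drops POT1. With the highest transcript only, POT1 was at 0 at PDL 55, so it gave no ratio and left the count. Without low-data transcripts DKC1 was at 0 with control siRNA and left the HuR siRNA count in the same way. For the other changes the cause was not tested. Genes at least 2-fold apart for PDL 55 numbered 4006 with control siRNA as the reference. With a mean of at least 5 FPKM they numbered 1454 for PDL 55, 1327 for AUF1 siRNA, 1415 for HuR siRNA and 1651 for control siRNA, against 2495 for PDL 55, 2683 for AUF1 siRNA, 2809 for HuR siRNA and 3161 for control siRNA. By FPKM times length with assembled transcripts they were 1531 for AUF1 siRNA and 1623 for HuR siRNA. The alternatives that pair assembled transcripts with FPKM times length or with another reference, and the RTEL1 sum with its read-through, were added after the data were seen. Depth limits TERT, TERC and every value of the control siRNA library.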

Other observations

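The proteins that sit with DKC1 on telomerase RNA did not follow its order over the libraries; they were chosen after their values were seen. NOP10 was at 27.3 FPKM at PDL 55, 11.2 FPKM with AUF1 siRNA, 23.6 FPKM with HuR siRNA, 25.9 FPKM with control siRNA and 17.2 FPKM at PDL 15. NHP2 was at 21.6 FPKM at PDL 55, 24.0 FPKM with AUF1 siRNA, 23.2 FPKM with HuR siRNA, 13.7 FPKM with control siRNA and 27.2 FPKM at PDL 15. GAR1 was at 3.44 FPKM at PDL 55, 4.73 FPKM with AUF1 siRNA, 4.03 FPKM with HuR siRNA, 6.24 FPKM with control siRNA and 5.58 FPKM at PDL 15. None of the 3 was highest with HuR siRNA, the library in which DKC1 was highest at 34.4 FPKM.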
